A study of Mus musculus with 2 samples.

Results

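A set of 8 genes that respond to antigen receptor signalling was followed through the immune cells of subcutaneous B16F10 melanomas. They are the orphan nuclear receptor genes Nr4a1, Nr4a2 and Nr4a3, the zinc finger transcription factor genes Egr1, Egr2 and Egr3, the G protein regulator gene Rgs16 and the surface receptor gene Cd69. They were chosen by name, as 8 of the 24510 genes in the table, and all 8 had molecules. B16F10 is a pigmented mouse melanoma line of C57BL/6 origin. Tyr knockout, Oca2 knockout and wildtype B16F10 cells were injected under the skin of female C57BL/6 mice, 3 mice for each of 3 tumour genotypes, and CD45+ cells were sorted from the tumours. The labels give neither the age of the mice nor the number of clones behind each knockout line, and all hosts were C57BL/6. Each genotype received a sample tag, and the tagged cells were pooled into 1 capture. The labels and files used here do not tie tag 8, 9 or 10 to a genotype, so the 3 tags stand for 3 pools of unnamed genotype and knockout was not set against wildtype.

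In T and B cells, antigen receptor signalling raises calcium and activates the kinase ERK, and NR4A and EGR genes are switched on within minutes to hours. The NR4A proteins bind DNA without a known natural ligand, and in T cells that meet antigen for a long time they take part in exhaustion and tolerance. Egr2 and Egr3 restrain T cell activation and are linked with anergy, while Egr1 is an early activator. The same genes are immediate early genes in many other cells, including macrophages and neutrophils, where growth factors, adhesion, inflammatory signals and tissue dissociation also induce them.

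The table held 14899 cells, each with a tag call, of which 13090 had a single tag and 10491 passed the filters on detected genes and mitochondrial share. The kept cells had a median of 3489 molecules, and the tags kept 3336, 3486 and 3669 cells. Classes were gated on raw molecules of marker genes, which took in 6436 kept cells in 16 classes, 15 of them immune. A level below is in CPM, a gene's molecules in a class and tag scaled to 1000000 molecules of that class and tag, and 3 values in a row are tags 8, 9 and 10. The gates themselves set the levels of their marker genes, so these levels are no check of the classes. The T receptor genes summed to at least 4779 CPM in CD8 T cells and to at most 16.3 in C1q macrophages. The eosinophil class rested on Ccr3 and Siglecf, as Epx was at 0 in all tags. NK cells were taken from a gate that allows molecules of the T receptor constant genes Trbc1 and Trbc2, which NK cells can transcribe from the unrearranged locus. It asks for no molecule of the CD3 genes, Trac or the CD8 genes, so T cells in which these went undetected could pass. The CD45 sort left 87 cells gated as melanoma. Cells of a tag are not replicates, so classes were compared over the 3 tags. A gene was called higher or lower between classes when its ratio passed 2-fold one way in each of the 3 tags, with at least 30 molecules over both classes. The class sums were also tested over the tags with edgeR's quasi-likelihood test, tag as a block, with Benjamini-Hochberg adjusted p-values over all genes tested and a threshold of 0.05. These p-values set the class difference within tags against how it varies over 3 tags of 1 capture. That variation is estimated partly from all genes together, and each tag is 1 pool, so small p-values do not stand for independent animals. A range in brackets after a log2 ratio, which is the median over tags, runs over the lowest to the highest tag.

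The promoters of the NR4A genes are shown because they share a sequence feature that entered no part of the choice of genes. Sequences are from RefSeq on GRCm38.p6, in the 250 bases before the annotated start, trimmed where GENCODE places an exon. Windows of 5 of the 8 genes were used and all 5 genes are printed, with 1 of the 5 windows for Egr2. Capitals mark the core of the cyclic AMP response element, TGACG or its reverse complement CGTCA, and in Egr2 also a CArG box, the site of serum response factor.
Nr4a1 (chr15:101266596-101266845, plus strand): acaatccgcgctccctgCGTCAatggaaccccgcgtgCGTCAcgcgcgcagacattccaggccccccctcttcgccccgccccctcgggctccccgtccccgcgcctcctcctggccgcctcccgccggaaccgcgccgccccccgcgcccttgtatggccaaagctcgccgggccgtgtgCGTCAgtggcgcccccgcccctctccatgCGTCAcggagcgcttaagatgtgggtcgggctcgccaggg
Nr4a2 (chr2:57124004-57124253, minus strand): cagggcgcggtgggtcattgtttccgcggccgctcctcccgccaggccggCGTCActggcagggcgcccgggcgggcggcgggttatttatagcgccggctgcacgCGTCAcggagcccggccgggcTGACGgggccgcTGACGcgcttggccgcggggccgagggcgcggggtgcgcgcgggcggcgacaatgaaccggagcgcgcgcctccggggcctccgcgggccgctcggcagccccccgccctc
Nr4a3 (chr4:48045055-48045152, plus strand): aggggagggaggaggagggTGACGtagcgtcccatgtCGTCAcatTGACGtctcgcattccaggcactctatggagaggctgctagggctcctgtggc
Egr2 (chr10:67537619-67537868, plus strand): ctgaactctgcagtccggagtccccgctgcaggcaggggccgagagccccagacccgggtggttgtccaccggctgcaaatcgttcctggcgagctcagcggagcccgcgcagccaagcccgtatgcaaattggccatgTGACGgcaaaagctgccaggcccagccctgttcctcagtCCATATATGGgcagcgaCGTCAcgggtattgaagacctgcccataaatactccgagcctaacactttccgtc
Rgs16 (chr1:153740103-153740348, plus strand): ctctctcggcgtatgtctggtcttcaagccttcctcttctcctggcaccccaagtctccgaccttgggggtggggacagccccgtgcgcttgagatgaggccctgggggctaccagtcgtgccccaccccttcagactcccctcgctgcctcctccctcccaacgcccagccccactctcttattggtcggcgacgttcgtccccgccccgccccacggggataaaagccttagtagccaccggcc
The full 250-base windows of Nr4a1, Nr4a2 and Nr4a3 each held 4 TGACG cores on either strand, of which 3 lie in the printed stretch of Nr4a3. At least 3 cores were present in 0.688% of the 32851 windows in the RefSeq table, and at least 1 in 17.8%. The printed Egr2 window held 2 cores and 1 CArG box, which 1.47% of windows held. Of the 5 Egr2 windows, 3 overlapping ones held 2 cores each and the other 2 held none, 1 of which also lacked the CArG box. The Rgs16 window held neither. The EGR site GCGTGGGCG, present in 0.536% of windows, and the NR4A monomer site AAAGGTCA, in 1.34%, were in none of the 5 printed windows. Both strands were searched, and a palindrome of 2 overlapping cores counts as 2. A match describes letters and no binding was measured.

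The NR4A genes had different class patterns. Nr4a1 (chr15:101254269-101274795, plus strand; GRCm38), the member used most often as a reporter of T cell receptor signals, was highest in neutrophils at 1628, 1483 and 1721 CPM. Arg1 macrophages followed at 843, 503 and 885, B cells at 986, 676 and 715, and C1q macrophages at 889.7, 521 and 647. The neutrophil values lay above all others, and 12 of the 15 neighbouring pairs in the order overlapped. Among T cells, conventional CD4 cells had 669, 567 and 784, regulatory T cells 488, 471 and 457 and CD8 T cells 313, 221 and 409. CD8 T cells were thus the lowest lymphoid class in every tag, and CCR7 dendritic cells (428, 169 and 197) and plasmacytoid dendritic cells (389.7, 177 and 149.8) were at the bottom of the order by median.

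Nr4a2 (chr2:57106830-57124003, minus strand) was highest in NK cells at 856, 532 and 762 CPM. cDC2, cDC1 and monocytes followed at medians of 559, 546 and 534, and CD8 T cells had 464, 389 and 654. Only 1 of 15 neighbouring pairs in the order did not overlap, the step from regulatory T cells at 184 to 244 down to neutrophils at 73.2 to 177. Neutrophils, the class with the most Nr4a1, were therefore among the 5 classes with the least Nr4a2, beside B cells (96.7, 55.0 and 85.5), plasmacytoid dendritic cells, eosinophils and melanoma cells.

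Nr4a3 (chr4:48045153-48086447, plus strand) was led by CCR7 dendritic cells, the mature cells that carry antigen to lymph nodes, at 2329, 2525 and 2718 CPM. Neutrophils came next at 1399, 1655 and 1242, and neither class overlapped with its neighbours in the order by median. NK cells had 1215, 799 and 1036, gamma-delta T cells 1265, 871 and 991, of which tag 8 passed the lowest neutrophil value, and conventional CD4 T cells 603, 939.9 and 1067. CD8 T cells had 495, 559 and 710.4. By median, the lowest immune classes were Arg1 macrophages at 268 to 337 and B cells at 196 to 354. Plasmacytoid dendritic cells, at 184 to 335, overlapped with both. After each cell was thinned to 1000 molecules, Nr4a3 was found in 81.0% (95% Clopper-Pearson interval 75.3 to 85.8%) of CCR7 dendritic cells, and in 18.2% of plasmacytoid dendritic cells. Intervals here and below cover counting error only.

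**Figure D1:**
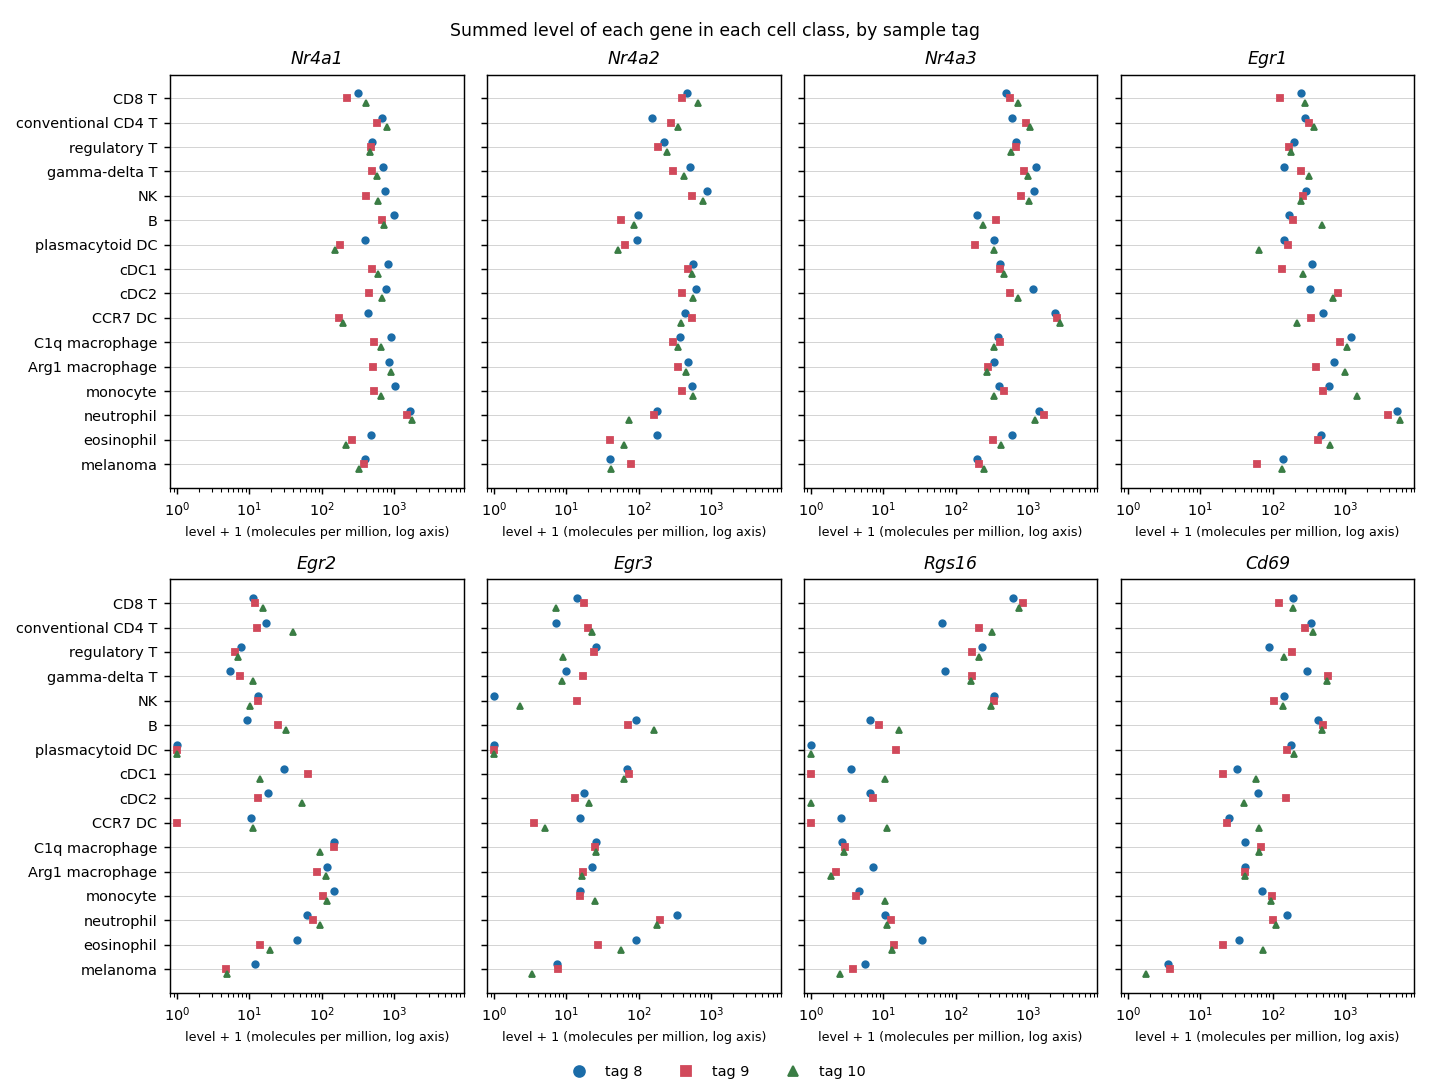
Level of each of the 8 genes plus 1 (x axis, CPM on a log scale) in 16 cell classes (y axis), with 1 point for each sample tag. Egr1 and Egr3 stand out in neutrophils, Nr4a3 in CCR7 dendritic cells, and Rgs16 in the T and NK classes.

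Egr1 spanned 39.3-fold between its highest and lowest class medians. It reached 5220.4, 3890.1 and 5714 CPM in neutrophils, against 1199, 854 and 1058 in C1q macrophages, the next class. Monocytes had 605, 496 and 1433 and Arg1 macrophages 699.8, 398 and 995, with the lowest value of both in tag 9. All T, NK and B classes lay below C1q macrophages, between 126 in CD8 T cells of tag 9 and 482 in B cells of tag 10. A further 29 cells passed a basophil or mast cell gate, too few for the list of classes, and they had 7176, 2536 and 6424 for Egr1 and 3369.9, 1404 and 1127 for Nr4a1. In thinned cells, Egr1 was present in 84.7% (95% Clopper-Pearson interval 81.4 to 87.6%) of neutrophils, 42.3% of C1q macrophages and 17.9% of CD8 T cells.

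Egr2 (chr10:67535475-67542188, plus strand), which also acts in macrophages, was highest in macrophages, monocytes and neutrophils, while eosinophils had 13.2 to 44.5 CPM. C1q macrophages had 146, 148 and 92.6 CPM, monocytes 146, 102 and 116, Arg1 macrophages 118, 84.7 and 113 and neutrophils 61.6, 74.0 and 93.4. Each overlapped with its neighbour in the order, and monocytes lay above neutrophils without overlap. CD8 T cells had 10.3, 11.1 and 14.5 from 76 molecules in 871 cells, and melanoma cells, which serve as a background, had 11.1, 3.80 and 3.90. Plasmacytoid dendritic cells held no Egr2 molecule, which at the floor of 3 counts allows up to 18.6, 21.3 and 21.4 CPM.

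Egr3 (chr14:70077203-70082614, plus strand) was highest in neutrophils at 335, 192 and 177 CPM. B cells (91.2, 70.7 and 163), cDC1 (67.8, 72.3 and 61.0) and eosinophils (89.0, 26.3 and 55.0) formed a second group whose ranges overlapped. C1q macrophages lay below them at 24.7, 23.6 and 24.99, and CD8 T cells had 13.1, 16.3 and 6.23.

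Rgs16 (chr1:153740349-153745468, plus strand), which shortens G protein signals from chemokine receptors, was highest in the 5 T and NK classes, and the other 11 were near background. CD8 T cells had 621, 847 and 754 CPM and did not overlap with NK cells at 339, 331 and 307. Conventional CD4 T cells had 62.8, 209 and 316, regulatory T cells 229.7, 167 and 208 and gamma-delta T cells 71.0, 167 and 159, with the lowest value of the CD4 and gamma-delta classes in tag 8. Eosinophils had 33.4, 13.2 and 12.2 from 7 molecules and neutrophils 9.47, 11.8 and 10.1 from 14. C1q macrophages were at 1.68, 1.92 and 1.88 and melanoma cells at 4.57, 2.85 and 1.56.

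Cd69 (chr6:129267325-129275436, minus strand), an early activation receptor that holds lymphocytes in tissue by binding S1PR1, was highest in gamma-delta T, B and conventional CD4 T cells. Gamma-delta T cells had 293, 575 and 557 CPM and B cells 414, 487 and 482. Conventional CD4 T cells followed at 339, 280.1 and 357, without overlap with B cells but above the tag 8 value of gamma-delta T cells in 2 of 3 tags. CD8 T cells (189, 119.7 and 192), plasmacytoid dendritic cells (179, 156 and 193), regulatory T cells (87.0, 183 and 142) and NK cells (140.2, 104 and 137) came next. Each overlapped with its neighbour among these, but plasmacytoid dendritic cells lay above NK cells without overlap. Neutrophils, at 158, 101 and 109, overlapped with regulatory T and NK cells, and the 29 basophil or mast cells had 159, 254 and 336. Melanoma cells, which should lack Cd69, had 2.61, 2.85 and 0.780.

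**Figure D2:**
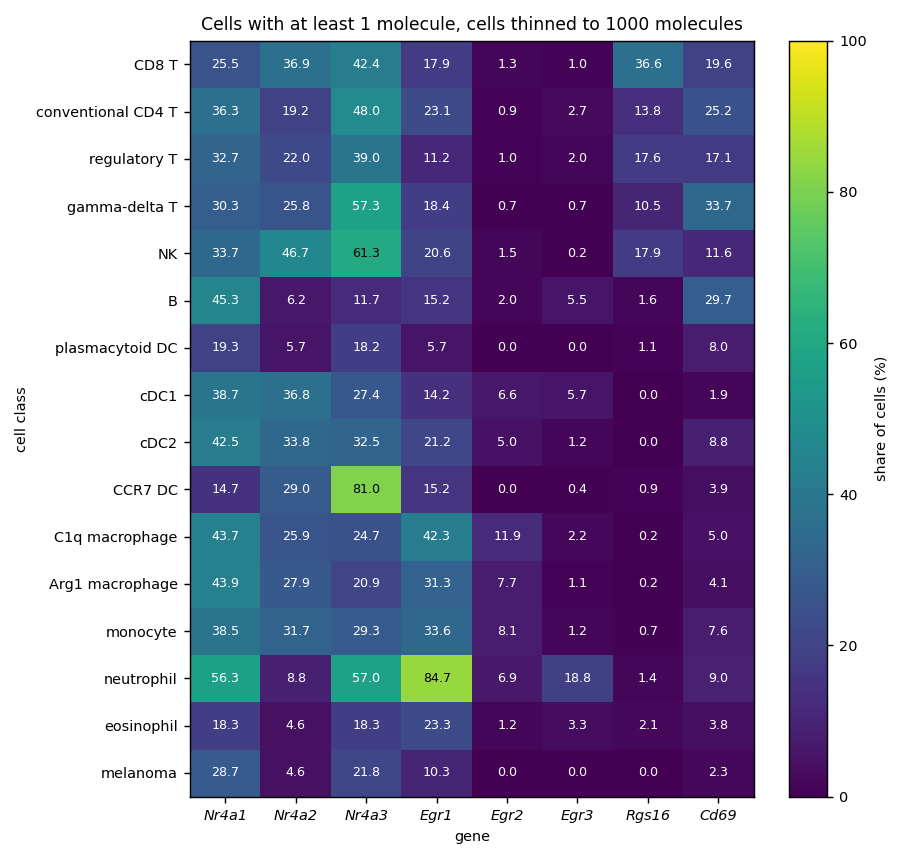
Share of cells (colour and printed percent) with at least 1 molecule of each gene (x axis) in each class (y axis), after each cell was thinned to 1000 molecules. The highest shares are Egr1 in neutrophils at 84.7% and Nr4a3 in CCR7 dendritic cells at 81.0%, and Rgs16 is above 10% in the 5 T and NK classes only.

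Across the 16 classes, Nr4a1, Egr1 and Egr2 had Pearson correlations of 0.72 (Nr4a1 with Egr1), 0.68 (Nr4a1 with Egr2) and 0.79 (Egr1 with Egr2) of log2 levels, while Nr4a1 had 0.09 with Nr4a3 and 0.17 with Nr4a2. Egr3 had 0.67 with Nr4a1, 0.64 with Egr1 and 0.49 with Egr2. These correlations are descriptions over classes that share 1 capture and 3 tags. Among 9020 other genes, the pattern of Rgs16 over the 16 classes was most like Gzmb, Nkg7 and Lck, which encode a granzyme, a granule protein and a T cell kinase, at 0.98, 0.98 and 0.97. The pattern of Egr1 was most like Rhov at 0.95, Sirpb1b at 0.93 and Ccrl2 at 0.93. Nr4a3 was closest to Emd at 0.87, Cdc42ep3 at 0.86 and Chp1 at 0.84, the nearest of which, Emd, encodes emerin of the nuclear envelope. Cd69 was closest to Ssh2 at 0.94, Lmbr1l at 0.91 and Smap2 at 0.90, and Egr2 to Hk3 at 0.93, Dpep2 at 0.93 and Plau at 0.93. Nr4a1 was closest to Arid5b at 0.81, Gm7160 at 0.78 and Retreg1 at 0.77, Nr4a2 to Pdgfb at 0.86, Crybg1 at 0.81 and Dhps at 0.79, and Egr3 to Gm19951 at 0.83, Cfap43 at 0.83 and Xylt1 at 0.82.

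CD8 T cells were split by the checkpoint receptor genes Pdcd1, Lag3 and Havcr2, which mark T cells under lasting antigen exposure, into 447 cells with at least 1 of their molecules and 424 without. Rgs16 was higher and Cd69 lower in cells with checkpoint receptor molecules, and no NR4A or EGR gene reached the 2-fold call, while Nr4a1, Nr4a3 and Egr1 were lower by the edgeR test. Rgs16 had 907, 1027 and 963 CPM in cells with checkpoint receptor molecules, against 127, 252 and 278 without. The groups did not overlap, and the median log2 ratio over tags was 2.03 (1.79 to 2.83), or 4.08-fold. Cd69 had 119.7, 57.9 and 103 with and 308, 324 and 396 without, again without overlap, at a log2 ratio of -1.94 (-2.48 to -1.36). As a mean of CPM per cell, the Cd69 ratio was -1.13 and no longer called. The edgeR adjusted p was 4.71e-09 for Rgs16 and 1.15e-08 for Cd69. Of the 8 genes, 2 were called, against 5.92% of the 9128 genes tested, 3.06% higher and 2.86% lower. The edgeR test passed 5 of the 8, against 29.3% of genes.

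The NR4A genes differed among themselves in this split. Nr4a1 had 249.7, 185 and 294 CPM with and 423, 338 and 671 without, lower in all 3 tags at a log2 ratio of -0.87 (-1.19 to -0.76). Egr1 had 201, 96.5 and 181 with and 326, 222 and 499 without, a log2 ratio of -1.20 (-1.46 to -0.70), and tag 8 kept it short of the call. Both genes were called lower at 1.5-fold, and the edgeR adjusted p was 1.75e-06 for Nr4a1 and 8.1e-07 for Egr1. Nr4a2 had 538, 409 and 656 with and 336, 322 and 648 without, so that tag 10 showed almost no difference, and its edgeR adjusted p was 0.0583. Nr4a3 had 459, 544 and 598 with and 555, 607 and 967 without, with an edgeR adjusted p of 0.017. Egr2 and Egr3 rested on 41 and 42 molecules with, and 35 and 31 without.

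**Figure D3:**
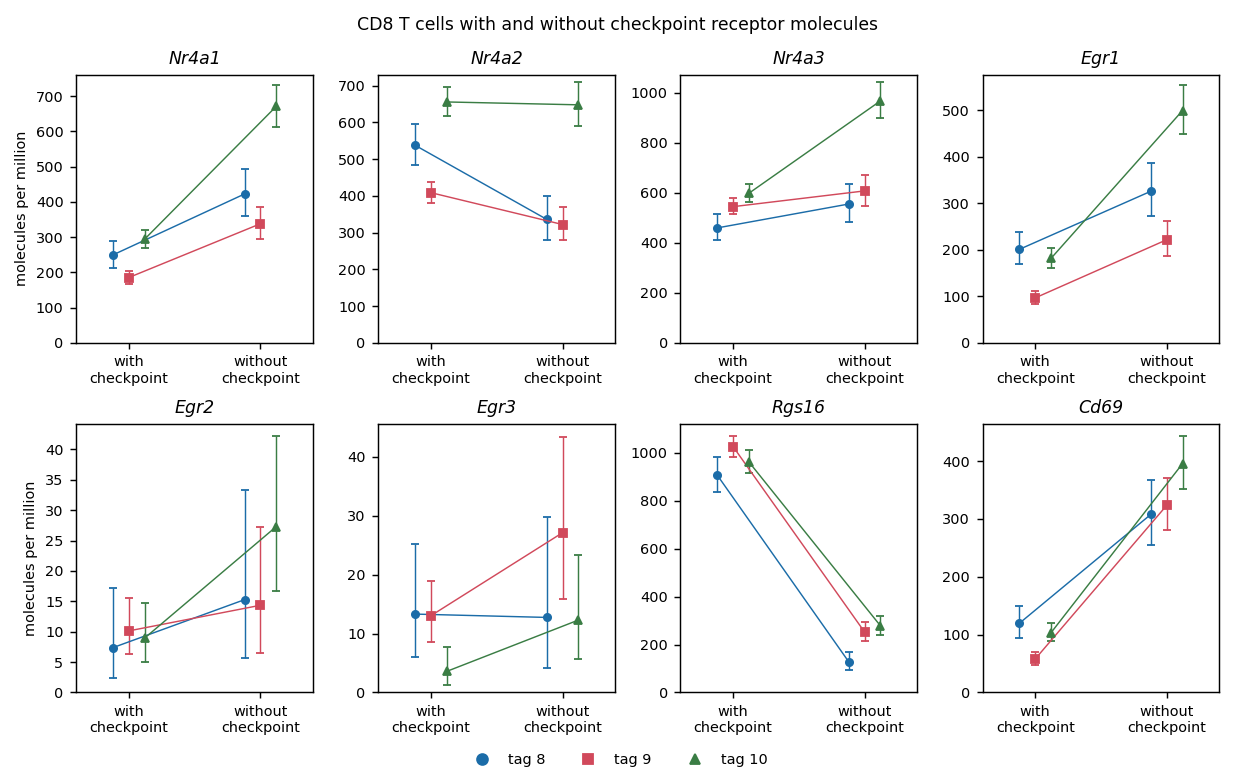
Level of each gene (y axis, CPM) in CD8 T cells with (left) and without (right) checkpoint receptor molecules, with 1 line for each sample tag and exact Poisson 95% intervals as bars. Rgs16 is higher in cells with checkpoint receptor molecules in all 3 tags, and Cd69, Nr4a1 and Egr1 are lower in all 3.

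Cells with checkpoint receptor molecules were deeper, with a median of 7482 molecules against 3433 without. At an equal depth of 1000 molecules, Rgs16 was present in 55.7% (95% Clopper-Pearson interval 51.0 to 60.4%) of cells with and 16.2% (95% Clopper-Pearson interval 12.8 to 20.1%) without, and Cd69 in 12.1% (95% Clopper-Pearson interval 9.25 to 15.5%) with and 27.4% (95% Clopper-Pearson interval 23.2 to 32.0%) without. When cells were thinned before the split, Rgs16 had 386, 687 and 473 CPM at 0 checkpoint receptor molecules, 273, 1395 and 1182 at 1 and 1000, 1156 and 1095 at 2 or more. The value at 1 molecule in tag 8 came from 22 cells and was below that at 0. Cd69 had 241, 289.7 and 466 at 0, 227, 118 and 127 at 1 and 100, 188 and 143 at 2 or more, the last from 20, 32 and 21 cells. Nr4a1 had 317, 308 and 785 at 0, 500, 276 and 309 at 1 and 300, 156 and 95.2 at 2 or more. Egr1 had 241, 192 and 462 at 0, 318, 92.1 and 436 at 1 and 150, 62.5 and 238 at 2 or more. In tag 8 both were thus higher at 1 molecule than at 0, and Nr4a3 rose there from 628 at 0 to 682 at 1 and 700 at 2 or more. With Havcr2 alone as the split, Rgs16 was no longer called, at a log2 ratio of 0.97, and Egr1 had no common direction (-0.93, -0.93 to 0.35). With Pdcd1 alone, Egr2 was called lower as well, at -1.43 (-2.13 to -1.29).

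The other genes of the response were read from lists, each to be set beside the 3.06% of all genes called higher and 2.86% called lower in this split. Of 26 antigen receptor response genes, all tested, 3 were called higher in CD8 T cells with checkpoint receptor molecules, namely Tnfrsf4 (log2 ratio 2.98) and Tnfrsf9 (2.85), which are costimulatory receptors, and the phosphatase gene Dusp4 (2.64). Dusp2, a further ERK phosphatase, was called lower (-1.23), and the list's median was -0.03, against 0.09 over all genes tested. Of 7 tested exhaustion factors, 2 were called higher, Tox (1.68) and Entpd1 (1.53). Of 8 egress and residence genes, Cxcr6 was called higher (2.13) and 4 were called lower, among them Itgae (-3.81), Klf2 (-3.44) and S1pr1 (-2.73), the receptor that Cd69 binds. Of 8 EGR partners and anergy targets, 1 was called, Dgka at -1.47, and of 5 tested NFAT and calcineurin genes none was. The 18 immediate early and dissociation genes summed to 5657 to 6494 CPM with checkpoint receptor molecules and to 7476 to 9425 without, and 1 of them, Fos (-1.41), was called lower. Their part in the lower Nr4a1, Egr1 and Cd69 was not tested.

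Within single CD8 T cells, thinned to 1000 molecules, Nr4a1 went with Egr1, Nr4a3 and Cd69 more than with Rgs16. Nr4a1 was present in 44.5% of the 155 cells with Egr1 and in 21.3% of the 709 cells without, in the same direction in all 3 tags. It was present in 39.6% of the 169 cells with Cd69 and in 22.0% of the 695 cells without, and in 24.4% of the 316 cells with Rgs16 and in 26.1% of the 548 cells without. For Rgs16 the tags did not agree, since the Nr4a1 share was higher with Rgs16 in 2 of 3 tags and lower in tag 10 (25.6% against 35.5%). Nr4a2 was present in 43.99% of the 316 cells with Rgs16 and in 32.8% of the 548 cells without, but among cells with checkpoint receptor molecules alone in 41.9% of the 248 cells with Rgs16 and in 41.6% of the 197 cells without. Nr4a1 was also present in 45.2% of the 84 cells with Fos and in 23.3% of the 780 cells without. These shares are descriptions, since cells of a tag share their source.

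Conventional CD4 T cells gave a smaller split, with 71 cells with checkpoint receptor molecules, 14 of them in tag 8, and 264 without. None of the 6 genes with enough molecules was called, against 1.1% of 5378 genes, 0.521% higher and 0.576% lower. In the edgeR test, which 2.16% of genes passed, Rgs16 was higher (adjusted p = 0.00194) and Egr1 lower (adjusted p = 0.0119). Rgs16 had 76.4, 412 and 551 CPM with and 59.3, 124 and 213 without, above in all 3 tags but only slightly in tag 8 (log2 ratio 1.37, 0.36 to 1.73). Egr1 had 153, 169.7 and 222 with and 305, 383 and 435 without, a log2 ratio of -0.996 (-1.18 to -0.97). Cd69 had 336, 275 and 393 with and 340.3, 282 and 341 without, so the tags of the groups overlapped. Of 7 tested egress and residence genes, 3 were called lower, among them Klf2 (-1.64) and S1pr1 (-1.49), and of 23 tested antigen receptor response genes none was.

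Regulatory T cells, marked by Foxp3, were set against conventional CD4 T cells. Egr2 was called lower, at 6.69, 5.27 and 5.99 CPM in regulatory T cells and 15.7, 11.9 and 39.2 in conventional CD4 T cells. This rests on 9 molecules in regulatory and 28 in conventional cells, and without any 1 of the 3 tags too few were left for a call. Its edgeR adjusted p was 0.0578. The background was 4.26% of 7656 genes, 1.92% called higher and 2.34% called lower. Cd69 had 87.0, 183 and 142 in regulatory and 339, 280.1 and 357 in conventional cells, lower in all 3 tags at a log2 ratio of -1.33 (-1.96 to -0.62), with tag 9 short of 2-fold. By the edgeR test, which 14.1% of genes passed, Cd69 (adjusted p = 0.00146), Egr1 (0.00401) and Nr4a1 (0.034) were lower in regulatory T cells. The antigen response list split in this contrast, with Tnfrsf9 (2.19) and Tnfrsf4 (1.35) called higher and Ifng (-2.71), Xcl1 (-2.02) and Dusp2 (-1.67) called lower among 25 tested. CD8 T cells set against NK cells gave no call among the 8 genes, against 5.33% of 9626 genes, 2.49% higher and 2.84% lower, and Rgs16 came nearest at a log2 ratio of 1.30 (0.87 to 1.36). Nr4a1, Nr4a2 and Nr4a3 were lower in CD8 T cells than in NK cells in all 3 tags, at -0.89, -0.45 and -0.54. By the edgeR test, which 23.9% of genes passed, these 3 genes were lower and Rgs16 and Cd69 higher in CD8 T cells, with adjusted p-values from 1.41e-18 for Rgs16 to 0.0172 for Nr4a3.

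B cells differed from conventional CD4 T cells in 3 of the 8 genes, against 10.7% of 6620 genes, 4.43% higher and 6.24% lower. Rgs16 was lower in B cells, with 5.52, 7.86 and 15.5 CPM from 5 molecules in B cells and 62.8, 209 and 316 in CD4 T cells. Nr4a3 was lower, at 196, 354 and 233 in B cells and 603, 939.9 and 1067 in CD4 T cells (log2 ratio -1.62, -2.19 to -1.41). Egr3 was higher, at 91.2, 70.7 and 163 in B cells and 6.28, 19.0 and 21.8 in CD4 T cells (log2 ratio 2.91, 1.897 to 3.86), from 63 molecules in B cells and 20 in CD4 T cells. With a mitochondrial limit of 10% Egr3 was no longer called, at 2.61, and B cells had the highest median mitochondrial share of the 16 classes, 9.44%. By the edgeR test, which 22.9% of genes passed, the adjusted p was 7.87e-08 for Rgs16, 4.44e-08 for Nr4a3 and 1.9e-05 for Egr3, and Nr4a2 was lower too (0.00044). Nr4a1 had no common direction (0.25, -0.13 to 0.56). Of 23 tested antigen receptor response genes, Myc (2.66) and Irf4 (1.77) were called higher in B cells and 8 lower.

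**Figure D4:**
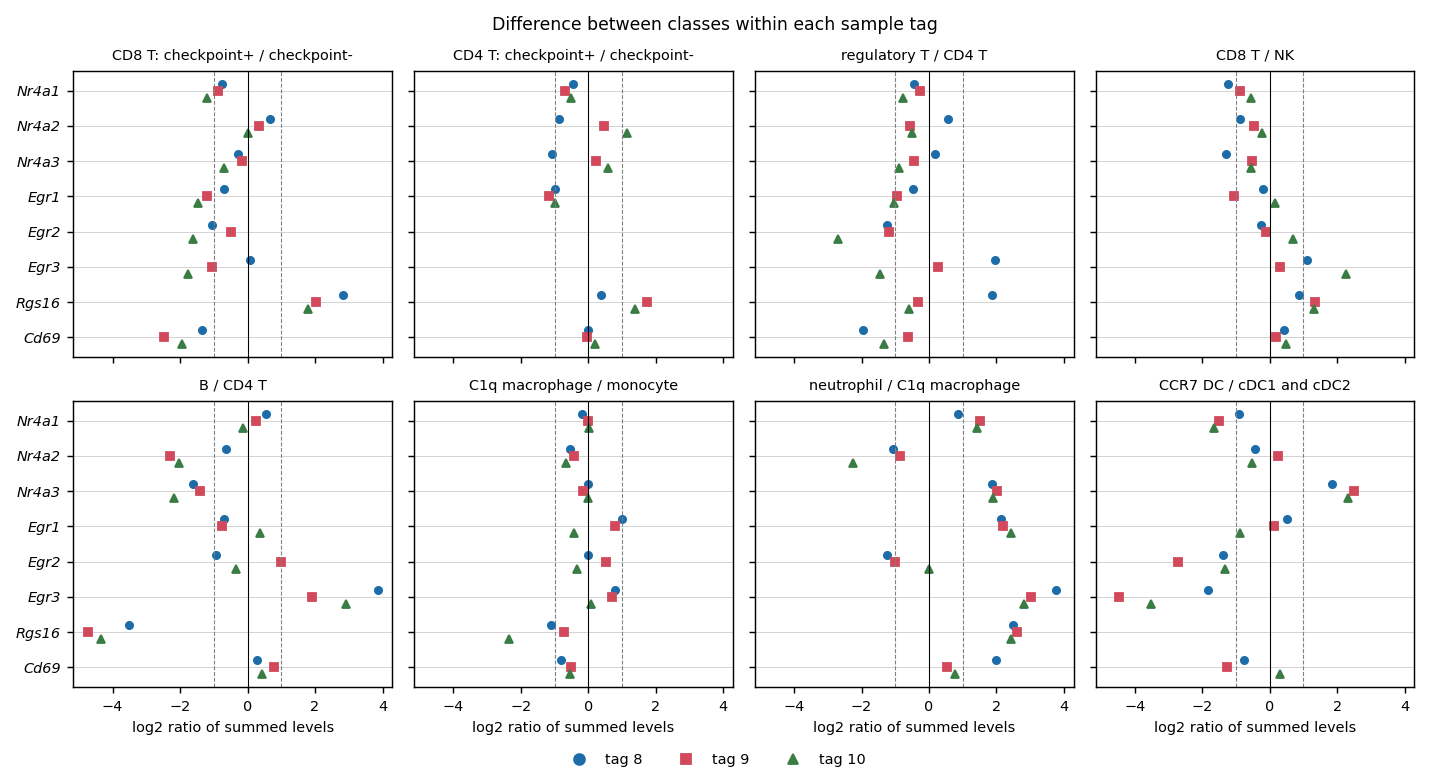
Log2 ratio of summed levels (x axis) of each gene (y axis) in 8 class contrasts, with 1 point for each sample tag and dashed lines at 2-fold. Genes with under 30 molecules over both classes are left out, and Rgs16 in B cells over CD4 T cells and Egr3 in neutrophils over C1q macrophages lie far beyond 2-fold in all 3 tags.

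Neutrophils were high in Egr1, Egr3 and Nr4a3 and low in Nr4a2. Against C1q macrophages, 4 of the 8 were called higher in neutrophils and none lower. Neutrophils held fewer molecules, a median of 2092 against 9796, and CPM is a share of the class total. Egr1 came to 6885 molecules in 563 neutrophils and to 14743 in 1295 C1q macrophages. Nr4a3 came to 1937 and 5276 molecules and Egr3 to 347 in each class. The part of the depth difference in the ratios was not tested. Egr1 was at a log2 ratio of 2.19 (2.12 to 2.43), Egr3 at 3.03 (2.82 to 3.76) and Nr4a3 at 1.89 (1.85 to 2.02). Rgs16 was at 2.50 from 14 molecules in neutrophils and 26 in macrophages, both near background. Of 10281 genes, 29.8% were called, 6.99% higher and 22.8% lower, and the median gene was at -0.59. Relative to that median gene, the ratios were 2.78 for Egr1, 3.62 for Egr3 and 2.48 for Nr4a3, and Nr4a1 (1.999) and Cd69 (1.35) were called higher too. On that scale the genes called higher and lower over the whole table came to 1343 and 1071, against 719 and 2345 by the class totals. Nr4a2 went the other way in all 3 tags, at 177, 163 and 73.2 CPM in neutrophils and 369, 295 and 350.3 in macrophages, at a log2 ratio of -1.06. It was called lower at 1.5-fold and, at -1.35, after thinning to 1000 molecules. In the edgeR test, which 58.6% of genes passed, all 8 passed, Nr4a2 (adjusted p = 2.39e-14) and Egr2 (0.000539) as lower and the other 6 as higher. With TMM scaling Egr2 no longer passed (adjusted p = 0.734).

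The wider lists held calls in both directions in neutrophils, where 6.99% of all genes were called higher and 22.8% lower. Of 18 immediate early and dissociation genes, 6 were called higher, among them Btg2 (2.63) and Dusp1 (2.15), and 3 lower, among them Klf4 (-3.03) and Hspa1b (-1.81). The list summed to 30455 to 37603 CPM in neutrophils and 17758 to 19567 in C1q macrophages, with neutrophils above every other class of the 16, and its part in the Egr1, Egr3 and Nr4a3 levels was not tested. Of 23 tested antigen receptor response genes, 7 were called higher, led by the chemokine gene Ccl3 (3.44) and the stress gene Gadd45b (2.21), and Myc was called lower (-2.46). After thinning, 48.6% of neutrophils held at least 3 of the 8 genes, against 20.5% of C1q macrophages and 27.7% of CD8 T cells.

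C1q macrophages over monocytes gave no call among the 8 genes, against 3.58% of 10506 genes, 2.89% higher and 0.685% lower. By the edgeR test, which 26% of genes passed, Nr4a2 (adjusted p = 1.02e-06), Cd69 (0.00014) and Rgs16 (0.0191) were lower in macrophages. Nr4a1 had a log2 ratio of -0.01 (-0.17 to 0.01), Nr4a3 of -0.02 (-0.16 to -0.01) and Nr4a2 of -0.53 (-0.66 to -0.42). Egr1 ranged over -0.44 to 0.99, with monocytes above macrophages in tag 10 only. In single C1q macrophages after thinning, Egr1 was present in 50.6% of the 731 cells with Fos and in 31.6% of the 564 cells without, higher with Fos in all 3 tags, and Nr4a1 in 45.3% of the 731 cells with Fos and in 41.7% of the 564 cells without, higher in 2 of 3.

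CCR7 dendritic cells were set against cDC1 and cDC2 together. Nr4a3 was called higher, at 2329, 2525 and 2718 CPM in CCR7 dendritic cells and 644, 447 and 544 in conventional ones, a log2 ratio of 2.32 (1.86 to 2.50) or 5.001-fold. Egr3 was called lower, at 14.4, 2.53 and 4.14 in CCR7 dendritic cells and 51.6, 56.5 and 47.3 in conventional ones. This came from 12 molecules in CCR7 dendritic cells and 86 in conventional ones. Of the conventional classes, cDC1 had 61.0 to 72.3 CPM of Egr3. In cDC2 it was at 12.2 to 19.5, which overlapped with CCR7 dendritic cells. Egr2 was called lower from 11 molecules in CCR7 dendritic cells and 57 in conventional ones, with tag 9 at 0 in CCR7 dendritic cells and set to the floor of 3 counts. These 3 of the 7 genes with enough molecules stand against 17.4% of 7568 genes, 7.86% higher and 9.51% lower, around a median gene at -0.24. Nr4a1 was lower in all 3 tags without a call, at 428, 169 and 197 in CCR7 dendritic cells and 800.0, 476 and 617 in conventional ones (log2 ratio -1.49, -1.65 to -0.90). With edgeR, whose test 37.4% of genes passed, the adjusted p was 1.25e-08 for Nr4a3, 0.000282 for Egr3, 0.0207 for Egr2 and 8.03e-06 for the lower Nr4a1. Relative to the median gene, the ratio was 2.57 for Nr4a3 and -1.25 for Nr4a1. Of 18 tested antigen receptor response genes, 4 were called higher, namely Tnfrsf9 (6.63), Tnfrsf4 (5.40), Gadd45b (2.23) and the NF-kB subunit gene Rel (1.68), and Myc was called lower (-2.74).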

How the data were processed

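Whole transcriptome and sample tag libraries of 1 BD Rhapsody capture of CD45+ cells were analysed. The deposited values are counts of molecules after the pipeline's correction of molecular identifiers. The file headers name the BD WTA pipeline, version 1.9.1, with GRCm38 and GENCODE vM19 as its reference. GRCm39 stands in the submitters' processing notes and was not used. A targeted library is mentioned in the series text, which the header and the table of 24510 genes do not bear out. The 8 genes and the gene lists were chosen with earlier results of these data known.

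Kept were single-tag cells in which 200 genes or more were detected and mitochondrial molecules made up no more than 25%. The 1448 multiplet and 361 undetermined tag calls were left out, no doublet caller was run, and an estimated 725 same-tag pairs may remain among single-tag cells. Classes were gated on marker counts: T receptor sum of at least 2 with CD8, Cd4 or Foxp3 of at least 1 for T classes, at least 10 C1q molecules for C1q macrophages, and a melanoma sum of at least 20. The 205 cells that passed more than 1 gate were left out, and 4055 kept cells were in no class shown. The NK gate without any T receptor molecule left 65 cells, under 20 in 1 tag, so a wider gate was chosen after seeing the data. The CD4 checkpoint contrast was likewise run with a minimum of 10 cells per tag instead of 20.

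Molecules were summed per class and tag and scaled to CPM, that is to 1000000 molecules, with exact Poisson 95% intervals. Shares used cells thinned to 1000 molecules (seed 1), with exact Clopper-Pearson 95% intervals. Both intervals cover counting error only. A count of 0 was set to a floor of 3 counts in ratios. Gate genes were left out of the tested genes. Classes were compared within each tag by the 2-fold rule. A test over the 3 tags, edgeR's quasi-likelihood test of the class sums with tag as a block and class totals as library sizes, was added after seeing the data, at an adjusted p under 0.05. Genotypes were not tested. The named genes are the 8 members, the 3 genes most like each over classes (log2 of CPM + 10, at least 300 molecules), and up to 4 called genes per list and contrast. The values of 1 list gene are not reported here. The 2-fold rule and the edgeR test were checked on simulated counts built on the CD8 split only. The counts for the 2-fold rule held no spread between tags beyond counting error. The test and TMM scaling came from edgeR 4.0.16 in R 4.3.3, and all else from Python 3.11.15 with pandas 2.3.3, scipy 1.17.1, numpy 2.4.6 and, for the figures, matplotlib 3.10.9.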

Additional observations from a re-analysis of the deposited data

How the results depend on the processing

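Of 813 values of single genes under the alternatives, 768 moved by less than the SD over tags, 45 moved by more and none changed direction among called values. Of the 13 calls, 6 held under every alternative run for their contrast, with enough molecules for a call in each. At 1.5-fold, 4 of 8 were called for CD8 T cells with over without checkpoint receptor molecules, against 17.0% of all genes tested. The CD4 split gave 1 (5.02% of all genes), regulatory over CD4 T cells 2 (11.4%) and CD8 T over NK cells 1 (11.8%). C1q macrophages over monocytes gave 1 (9.77%), B cells 4 (20.1%), neutrophils 6 (45.2%) and CCR7 dendritic cells 4 (29.6%). The CD4 split, with 0 calls as reported, gave 1 call under TMM scaling, 1 without mitochondrial, ribosomal and immunoglobulin genes in the total (Egr1 both times) and 1 after thinning (Rgs16). The CD8 split gave 1 call as a mean over cells, where Cd69 was no longer called at -1.13, and 1 with Havcr2 alone as the gate. Regulatory over CD4 T cells, with 1 call, gave 0 after thinning, with a mitochondrial limit of 10% and with strict gates. C1q macrophages over monocytes gave 1 with that mitochondrial limit, Rgs16 at -1.15 from few molecules. Egr3 in B cells was no longer called with that limit, at 2.61, and after thinning Egr2 and Egr3 of CCR7 dendritic cells had too few molecules. The cause was not tested.

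Leaving out each tag in turn gave 2 to 4 calls for the CD8 split (4 without tag 8, Egr1 and Egr3 added), 0 to 1 for the CD4 split, 0 to 1 for regulatory T cells, 0 to 1 for CD8 T over NK cells, 3 to 4 for B cells, 0 to 1 for C1q macrophages, 3 to 4 for neutrophils and 3 to 4 for CCR7 dendritic cells. Without tag 8, Rgs16 was called in the CD4 split and over NK cells, Nr4a2 was called lower in B cells, and Nr4a1 higher in neutrophils and lower in CCR7 dendritic cells. Without tag 9, Egr2 was called lower in the CD8 split and Nr4a2 lower in neutrophils, Egr3 was called over NK cells, Rgs16 was called lower in C1q macrophages and Cd69 lower in regulatory T cells. Rgs16 of neutrophils had too few molecules for a call without any 1 tag. With a tag left out, the rule asks for fewer tags, and the share of all genes called rose in every contrast. Shares without tag 8, 9 and 10 in turn were 9.28%, 10.9% and 10.2% in the CD8 split, against 5.92% with all tags. They were 35.2%, 38.8% and 37.3% in neutrophils, against 29.8%, and 23.97%, 22.93% and 21.96% in CCR7 dendritic cells, against 17.4%. The added calls among the 8 genes thus came with more calls over all genes. Across all genes, centring on the median gene changed the calls higher and lower from 595 and 720 to 764 and 504 in CCR7 dendritic cells, and from 279 and 261 to 200 and 320 in the CD8 split. TMM scaling gave 15 and 48 in the CD4 split, against 28 and 31, and 1303 and 1166 in neutrophils. Dropping mitochondrial, ribosomal and immunoglobulin genes from the total gave 375 and 351 in B cells, against 293 and 413. The CD4 split could not be made with strict gates or with at least 2 checkpoint receptor molecules. The edgeR test with tag as replicate block, a paired fit added after seeing the data, passed 12 of the 13 calls (not Egr2 in regulatory T cells) and 22 uncalled values. It passed 5 genes in the CD8 split (6 with TMM scaling), 2 in the CD4 split, 3 for regulatory T cells, 5 over NK cells, 4 for B cells (5 with TMM scaling, Cd69 added), 3 for C1q macrophages, 8 for neutrophils (7 with TMM scaling) and 4 for CCR7 dendritic cells, with or without TMM scaling where no other count is given.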

Other observations

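The tags, which stand for pools of unnamed genotype, ranked alike in many classes for some of the genes. Nr4a1 was highest in tag 8 in 11 of the 15 immune classes and lowest in tag 9 in 12 of 15. Nr4a2 was highest in tag 8 in 10 of 15 and lowest in tag 9 in 11 of 15, while Nr4a3 was highest in each tag in 5 of 15. The summed immediate early and dissociation list was lowest in tag 9 in 10 of 15 classes and highest in tag 10 in 7 and in tag 8 in 5. The share of cells over the mitochondrial limit came to 26.2% for tag 8, against 17.4% for tag 9 and 14.9% for tag 10. The classes share their tags and were prepared together, so these counts are 1 observation for each tag, and the part of the mitochondrial share was not tested.

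After thinning to 1000 molecules, 56.8% of plasmacytoid dendritic cells and 46.2% of eosinophils held none of the 8 genes, against 6.93% of CCR7 dendritic cells and 4.15% of neutrophils. In NK cells, Nr4a1 was present in 25.7% of the 74 cells with Rgs16 and in 35.4% of the 339 cells without, lower with Rgs16 in all 3 tags. In CD8 T cells without checkpoint receptor molecules, Nr4a2 was present in 51.5% of the 68 cells with Rgs16 and in 27.9% of the 351 cells without, higher with Rgs16 in all 3 tags. In monocytes, Egr1 was present in 43.6% of the 500 cells with Fos and in 21.1% of the 399 cells without, higher with Fos in all 3 tags.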
